A study of Rattus norvegicus with 30 samples.

Results

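The genes described here are Spp1, Gpnmb, Lgals3, Trem2, Apoe, Fabp5 and Cd9, 7 genes known from macrophages that take up lipid and cell debris. They were chosen by symbol with earlier results of the same arrays in view, in which Spp1, Gpnmb and Lgals3 had been named at 24 h, so their values at 24 h are given as a description, without a test. The array held 9 probe sets for the 7 genes, of 31042 probe sets that are not controls. Of these 9, 8 passed the filter on dim probe sets, among 24292 that did, which stand for 12451 genes. The probe set left out was the second one of Apoe, whose 30 values lay between 4.08 and 5.99 on the log2 scale. Each gene was stood for by its brightest probe set, and only Trem2 had a second one that passed.

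Transcripts were measured on Affymetrix RAT230_2 arrays in the hearts of male Crl:Wi(Han) rats given vehicle, or 1 dose of isoproterenol hydrochloride, an agonist of beta-adrenergic receptors. The vehicle groups, at a dose of 0, had 3 arrays each at 1, 3, 24 and 72 h, and the isoproterenol groups, at 0.5 with the unit mg/kg/ml in the labels, had 5 arrays at 1 h, 4 at 3 h, 4 at 24 h and 5 at 72 h, 30 arrays in all. The design text gives 0.5 mg and a last time of 48 h; the labels, with 72 h, are followed. The titles call the arrays biological replicates and do not say whether each is an animal of its own, so the p-values may reflect technical spread alone. The tissue is heart, called cardiac muscle in the source names, and none of 6 cardiomyocyte markers was dim in every group. In such bulk RNA, more cells of a type and more RNA per cell cannot be told apart.

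Spp1 encodes osteopontin, a secreted phosphoprotein that binds integrins and CD44. Gpnmb encodes a membrane glycoprotein of phagosomes and lysosomes, Lgals3 encodes galectin-3, a lectin that binds beta-galactosides, and Trem2 encodes a surface receptor for lipids and apolipoproteins that signals through the adaptor Tyrobp. Apoe encodes the apolipoprotein that carries cholesterol out of cells, Fabp5 a small cytosolic carrier of fatty acids and Cd9 a tetraspanin of the plasma membrane. In injured heart, macrophages are a known source of osteopontin and galectin-3, but Apoe, Fabp5 and Cd9 are also made by other cells of the heart.

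Promoter sequences of 5 of the 7 genes were found in the RefSeq table (build GRCr8); Lgals3 and Fabp5 were not matched. The 250 bases before the start are shown for Spp1 and Gpnmb, the genes with the largest differences from vehicle at 24 h. Capitals mark matches to a motif searched on both strands.

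Spp1, chr14:5619805-5620054, minus strand: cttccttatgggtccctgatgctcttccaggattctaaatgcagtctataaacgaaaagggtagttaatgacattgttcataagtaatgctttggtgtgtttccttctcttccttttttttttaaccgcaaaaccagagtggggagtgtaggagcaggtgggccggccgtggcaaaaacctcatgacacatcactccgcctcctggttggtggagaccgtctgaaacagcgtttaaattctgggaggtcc

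Gpnmb, chr4:79340878-79341127, plus strand: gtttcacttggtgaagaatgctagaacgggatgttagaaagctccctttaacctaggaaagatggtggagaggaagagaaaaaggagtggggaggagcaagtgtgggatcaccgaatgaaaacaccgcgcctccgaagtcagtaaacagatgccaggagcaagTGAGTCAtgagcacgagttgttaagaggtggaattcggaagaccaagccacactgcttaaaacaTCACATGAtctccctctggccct

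The motifs were TGANTCA, the AP-1 site, CACGTG, the E-box of the MiT family of factors, and TGACGTCA, the cAMP response element. A further motif, TCACATGA, a form of the M-box of the same family, was added after the Gpnmb sequence was seen. Its match in Gpnmb was therefore known in advance, and other forms of the M-box were not searched. The Gpnmb promoter held 1 TGANTCA match, which begins 87 bases before the start, and 1 TCACATGA match, which begins 23 bases before it. No match to the 4 motifs was found in these bases of Spp1, Trem2, Apoe (3 starts) or Cd9. Over all 33469 promoters of the table, 6.34% held TGANTCA, 5.59% CACGTG, 1.59% TGACGTCA and 0.977% TCACATGA in the same window.

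Levels are log2(intensity + 16) after quantile normalization, and a probe set counts as dim below 5.29 on that scale, an intensity of 23. Arrays of 1 group correlated between 0.934 and 0.984 over the probe sets tested, and none were identical. Array medians of the deposited intensity lay between 21.2 and 70.3. Isoproterenol arrays carry the numbers 33 to 62 and vehicle arrays 4 to 21, and the effect of array number cannot be told apart from that of treatment. 2 isoproterenol arrays stood apart. Replicate 1 at 72 h had a mean correlation of 0.948 with its own group and 0.962 with the vehicle arrays of 72 h. Of the 1996 genes called higher at 72 h without it, it lay within the vehicle range for 740 (37.1%). Replicate 3 at 24 h had mean correlations of 0.957 with its own group and 0.962 with vehicle, and lay within the vehicle range for 502 (29.7%) of 1688 genes called higher without it. Its median intensity was 35.2, against 57.6, 70.1 and 70.3 in the other isoproterenol arrays of 24 h. The members' differences from vehicle at 72 h and 24 h are therefore given with and without the 2 arrays that stood apart, and counts over lists are given both ways where they changed.

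**Figure D1:**
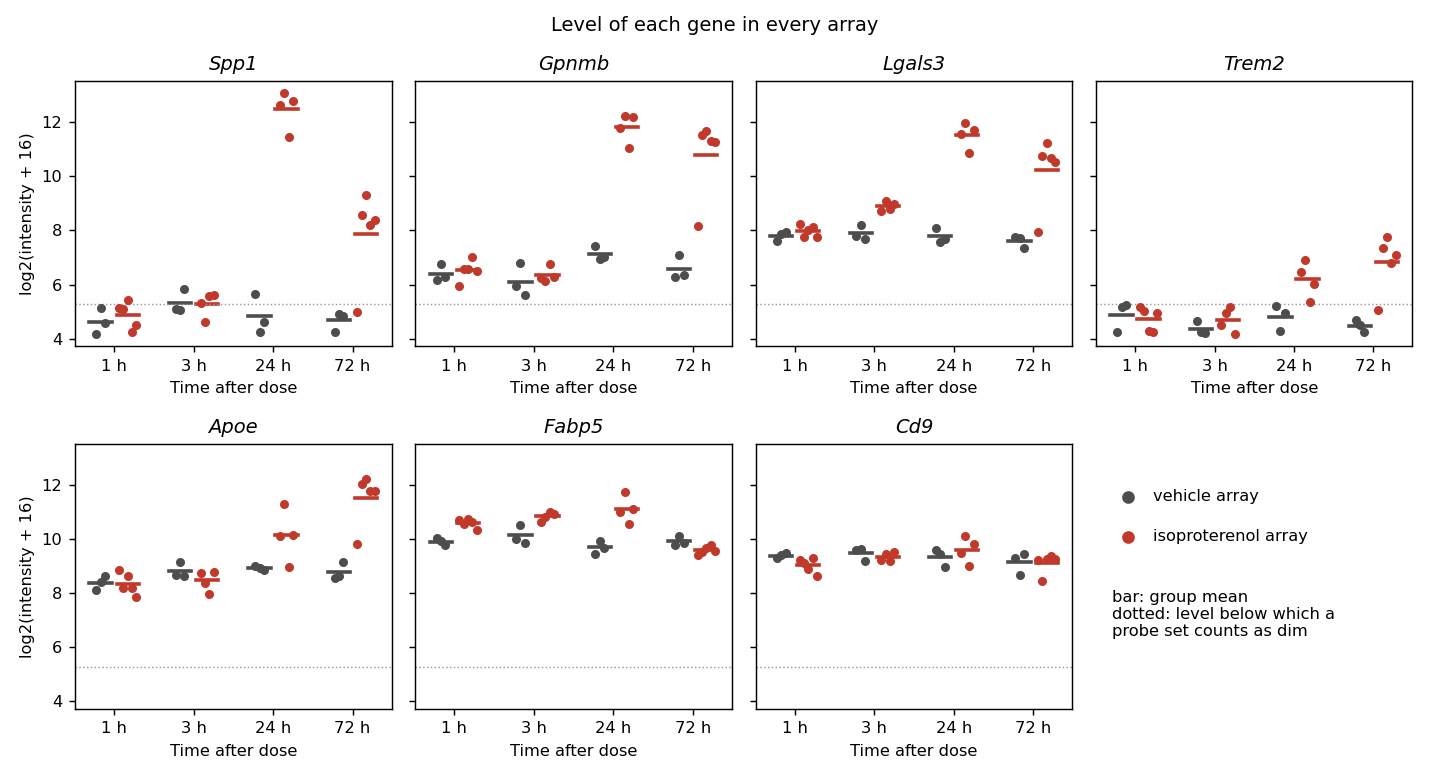
Level of each gene, as log2(intensity + 16), in every vehicle and isoproterenol array at 1, 3, 24 and 72 h; bars are group means and the dotted line is the level of 5.29 below which a probe set counts as dim. Isoproterenol replicate 1 at 72 h lies below the other 4 arrays of its group for Spp1, Gpnmb, Lgals3, Trem2 and Apoe.

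Among the secreted proteins, Spp1 had the largest difference of the 7 genes. In vehicle hearts it lay near or below the dim level, with means of 4.63 ± 0.48 (SD, n = 3) at 1 h, 5.33 ± 0.44 at 3 h, 4.84 ± 0.72 at 24 h and 4.68 ± 0.36 at 72 h. At 1 and 3 h after isoproterenol its 9 arrays lay between 4.23 and 5.61, and the differences from vehicle were 0.24 ± 0.55 (SE; limma adjusted p = 0.917) and -0.06 ± 0.57 (adjusted p = 0.969). Early arrays of both treatments therefore overlapped. At 24 h the 4 isoproterenol arrays read 12.65, 13.07, 11.46 and 12.78, against 5.65, 4.26 and 4.62 in vehicle. All 4 lay far above all 3, with a difference of 7.65 ± 0.57, or 7.99 ± 0.60 without replicate 3. Because the vehicle mean was below the dim level, the fold is a bound: Spp1 was at least 148-fold higher at 24 h, taking the dim level in place of the vehicle mean.

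At 72 h the isoproterenol arrays of Spp1 read 4.98, 8.57, 9.30, 8.19 and 8.37, against 4.26, 4.92 and 4.85 in vehicle. The lowest, replicate 1, exceeded the highest vehicle array by little, and the other 4 stood well above both. Spp1 rose by 3.21 ± 0.55 (limma adjusted p = 1.33e-04), at least 6.04-fold, and without replicate 1 by 3.93 ± 0.36, at least 9.99-fold. The effect at 72 h minus that at 24 h was -4.44 ± 0.79, and -3.72 ± 0.51 without replicate 1. No array of 72 h reached the lowest isoproterenol array of 24 h, 11.46.

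Lgals3, the galectin gene, was well above the dim level in all 12 vehicle arrays, which lay between 7.35 and 8.19. At 3 h its isoproterenol arrays read 8.70, 9.10, 8.77 and 8.98, against 7.79, 8.19 and 7.69 in vehicle. The groups did not overlap, but the difference of 1.00 ± 0.41 did not pass the test over all 30 arrays (adjusted p = 0.116). Fitted on the 3 h arrays alone, with an SE of 0.18, Lgals3 passed (limma adjusted p = 0.00446). At 24 h Lgals3 read 11.55, 11.98, 10.86 and 11.71, against 8.10, 7.57 and 7.69, a difference of 3.74 ± 0.41, or 3.96 ± 0.43 without replicate 3. At 72 h it read 7.94, 10.76, 11.24, 10.67 and 10.52, against 7.74, 7.70 and 7.35. Lgals3 rose by 2.63 ± 0.39 (limma adjusted p = 2.31e-05), and by 3.20 ± 0.20 without replicate 1, the array that lay next to vehicle.

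Apoe, the cholesterol carrier, was highest at 72 h. At 1 h (-0.04 ± 0.38, adjusted p = 0.984) and 3 h (-0.36 ± 0.40, adjusted p = 0.641) its arrays overlapped those of vehicle. At 24 h the isoproterenol arrays read 10.10, 11.31, 8.98 and 10.15, against 8.99, 8.92 and 8.86. Replicate 3 lay within the vehicle range and the other 3 lay above it, with a difference of 1.21 ± 0.40, or 1.60 ± 0.39 without replicate 3. At 72 h they read 9.82, 12.05, 12.21, 11.76 and 11.76, against 8.57, 8.65 and 9.13. All 5 lay above vehicle, and Apoe rose by 2.74 ± 0.38 (6.66-fold, limma adjusted p = 1.39e-05), or 3.16 ± 0.31 without replicate 1. The difference at 72 h exceeded that at 24 h by 1.52 ± 0.56, by 1.95 ± 0.43 without replicate 1 of 72 h and by 1.14 ± 0.52 without replicate 3 of 24 h.

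Among the membrane proteins, Gpnmb was above the dim level in vehicle, with arrays between 5.60 and 7.44. Its early differences were small, 0.12 ± 0.47 at 1 h (adjusted p = 0.954) and 0.24 ± 0.49 at 3 h (adjusted p = 0.815). At 24 h its isoproterenol arrays read 11.80, 12.21, 11.03 and 12.18, against 7.44, 6.94 and 7.04, and at 72 h 8.16, 11.52, 11.66, 11.30 and 11.27, against 6.30, 7.08 and 6.34. Apart from replicate 1, the arrays of 72 h lay between the lowest array of 24 h and the other 3. The difference at 24 h was 4.67 ± 0.49 (25.4-fold), or 4.93 ± 0.51 without replicate 3. At 72 h Gpnmb rose by 4.21 ± 0.47 (18.5-fold, limma adjusted p = 9.62e-07), and by 4.87 ± 0.27 (29.2-fold) without replicate 1. Between 24 and 72 h the difference changed by -0.46 ± 0.67 with all arrays and by 0.20 ± 0.39 without replicate 1.

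Trem2, the lipid receptor, was dim in all 12 vehicle arrays, between 4.19 and 5.23. At 24 h its isoproterenol arrays read 6.47, 6.92, 5.34 and 6.03, against 5.19, 4.29 and 4.94, a difference of 1.38 ± 0.42, at least 1.87-fold, or 1.67 ± 0.44, at least 2.28-fold, without replicate 3. At 72 h they read 5.06, 7.35, 7.77, 6.81 and 7.08, against 4.69, 4.50 and 4.25. Replicate 1 was dim and the other 4 were not. Trem2 rose by 2.33 ± 0.40 (limma adjusted p = 1.58e-04), at least 2.89-fold, and by 2.77 ± 0.33, at least 3.91-fold, without replicate 1. Its second probe set rose by 1.96 ± 0.42 (limma adjusted p = 0.00141) and differed by 1.00 ± 0.44 at 24 h, where 3 of 4 isoproterenol arrays lay above vehicle. Neither probe set passed at 1 or 3 h, with adjusted p from 0.693 to 0.954. By group mean, the brighter probe set was above the dim level only after isoproterenol at 24 and 72 h. Passing the filter on dim probe sets is therefore no separate support for its rise. Its call at 72 h also held with no filter.

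Cd9 showed no difference past the threshold where it was tested. Its 8 group means lay between 9.03 and 9.60, a span of 0.58, the smallest of the 7. The difference from vehicle was -0.36 ± 0.22 at 1 h (adjusted p = 0.538), -0.14 ± 0.23 at 3 h (adjusted p = 0.77) and -0.03 ± 0.22 at 72 h (adjusted p = 0.948), with a 95% interval at 72 h from -0.47 to 0.41. At 24 h the isoproterenol arrays read 9.49, 10.09, 9.01 and 9.81, against 9.58, 9.45 and 8.96. The groups overlapped, with a difference of 0.27 ± 0.23, or 0.47 ± 0.22 without replicate 3, the lowest of the 4.

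Fabp5, the fatty acid carrier, was the only one of the 7 genes called at 1 and 3 h. Its isoproterenol arrays at 1 h read 10.70, 10.57, 10.75, 10.62 and 10.33, against 10.02, 9.93 and 9.76, and at 3 h 10.64, 10.81, 10.98 and 10.91, against 10.01, 10.53 and 9.85. All 9 lay above the vehicle arrays of their time. Fabp5 rose by 0.69 ± 0.18 at 1 h (1.61-fold, limma adjusted p = 0.023) and by 0.70 ± 0.18 at 3 h (1.63-fold, limma adjusted p = 0.0107). The call at 1 h was lost when any vehicle array of 1 h, or isoproterenol replicate 1 or 3, was left out (highest adjusted p = 0.17, without vehicle replicate 3), and that at 3 h without vehicle replicate 1 (adjusted p = 0.058) or 3 (adjusted p = 0.068). With the arrays centred on their medians in place of quantile normalization, the rise at 1 h was 0.69 ± 0.22 and did not pass (adjusted p = 0.117).

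At 24 h Fabp5 read 11.01, 11.75, 10.56 and 11.10, against 9.45, 9.93 and 9.67, a difference of 1.42 ± 0.18, or 1.60 ± 0.18 without replicate 3. At 72 h the order was the opposite: the isoproterenol arrays read 9.40, 9.51, 9.67, 9.78 and 9.56, all below the vehicle arrays at 9.79, 10.11 and 9.83. The difference of -0.33 ± 0.18 did not pass (adjusted p = 0.219), nor did it without replicate 1 (-0.28 ± 0.18, adjusted p = 0.302). Replicate 1 was the lowest of the 5 here and the lowest for 6 of the 7 genes.

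**Figure D2:**
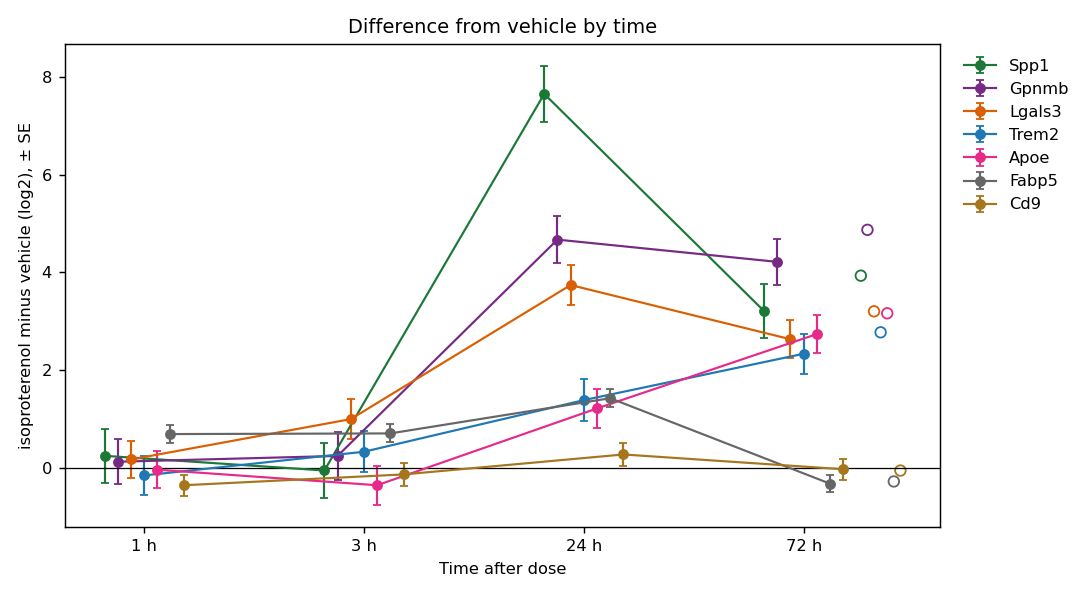
Difference between isoproterenol and vehicle group means (log2) with its SE at each time, for the 7 genes; open circles at the right are the differences at 72 h without isoproterenol replicate 1. Spp1 reaches 7.65 at 24 h, Gpnmb stays above 4 at both late times, Apoe and Trem2 are higher at 72 h than at 24 h, and Fabp5 returns to -0.33.

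Counted together, 1 of the 7 genes was called higher and 0 lower at 1 h, where 2.37% of all genes were called higher and 1.04% lower. At 3 h it was again 1 higher and 0 lower, against 6.94% and 6.33% of all genes. At 24 h the arrays of 5 of the 7 lay above vehicle without overlap, as did those of 13.0% of all genes; the members were chosen with values of this time in view, and nothing is read from that count. At 72 h 5 of the 7 were called higher and 0 lower, against 13.3% and 8.71% of all genes. Without replicate 1 the same 5 were called higher, where 1996 of all 12451 genes were called higher and 1576 lower (28.7% in either direction). Whether results at 72 h entered the choice of the genes is not known, so this is not independent evidence. The median difference over the 7 genes was 0.12 at 1 h, 0.24 at 3 h, 1.42 at 24 h and 2.63 at 72 h, while over all genes it was -0.03, -0.06, -0.01 and 0.01.

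The effect at 3 h did not differ from that at 1 h for any of the 7 genes by limma at an adjusted p of 0.05 (adjusted p from 0.598 to 0.993, 0 of the 7 at an unadjusted p under 0.05), and 0.731% of all genes passed. The effects at 72 h and 3 h were compared after the data had been seen. The effect at 72 h was larger for Gpnmb by 3.97 ± 0.67 (limma adjusted p = 1.88e-04), for Spp1 by 3.26 ± 0.79 (adjusted p = 0.00698), for Apoe by 3.09 ± 0.56 (adjusted p = 3.69e-04) and for Trem2 by 2.01 ± 0.59 (adjusted p = 0.026). It was smaller for Fabp5, where it fell by 1.03 ± 0.26 (adjusted p = 0.00838). For Lgals3 the difference of 1.63 ± 0.56 did not pass (adjusted p = 0.0635) and without replicate 1 it was 2.21 ± 0.29 (adjusted p = 2.02e-06). Of all genes, 11.6% passed this comparison in either direction, and 16.8% without replicate 1. Trem2 lost its call without vehicle replicate 1 of 3 h (adjusted p = 0.0692), isoproterenol replicate 4 of 3 h (0.0556), vehicle replicate 3 of 72 h (0.0679) or isoproterenol replicate 3 of 72 h (0.055), and its second probe set did not pass with all arrays (adjusted p = 0.0689).

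In vehicle hearts the levels at 1, 3 and 72 h did not differ past the threshold for any of the 7 genes (limma moderated F test, adjusted p from 0.885 to 0.991, 0 of the 7 at an unadjusted p under 0.05), and 0.0241% of all genes passed. By group mean, isoproterenol at 24 h ranked first for Spp1, Gpnmb, Lgals3, Fabp5 and Cd9, and isoproterenol at 72 h for Trem2 and Apoe. For Apoe the gap from isoproterenol at 72 h to isoproterenol at 24 h was 1.39 ± 0.35, and for Trem2 it was 0.62 ± 0.37. Below the first 2 ranks, neighbouring means of Spp1, Gpnmb, Trem2 and Apoe differed by at most 0.57, against SEs of these gaps between 0.37 and 0.61. Lgals3 kept a further step, from isoproterenol at 3 h (8.89) to isoproterenol at 1 h (7.98), a gap of 0.91 ± 0.36. For Fabp5 the isoproterenol means of 24, 3 and 1 h came first, with gaps of 0.27 ± 0.17 and 0.24 ± 0.16 between them and 0.46 ± 0.18 to vehicle at 3 h, and isoproterenol at 72 h came last.

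**Figure D3:**
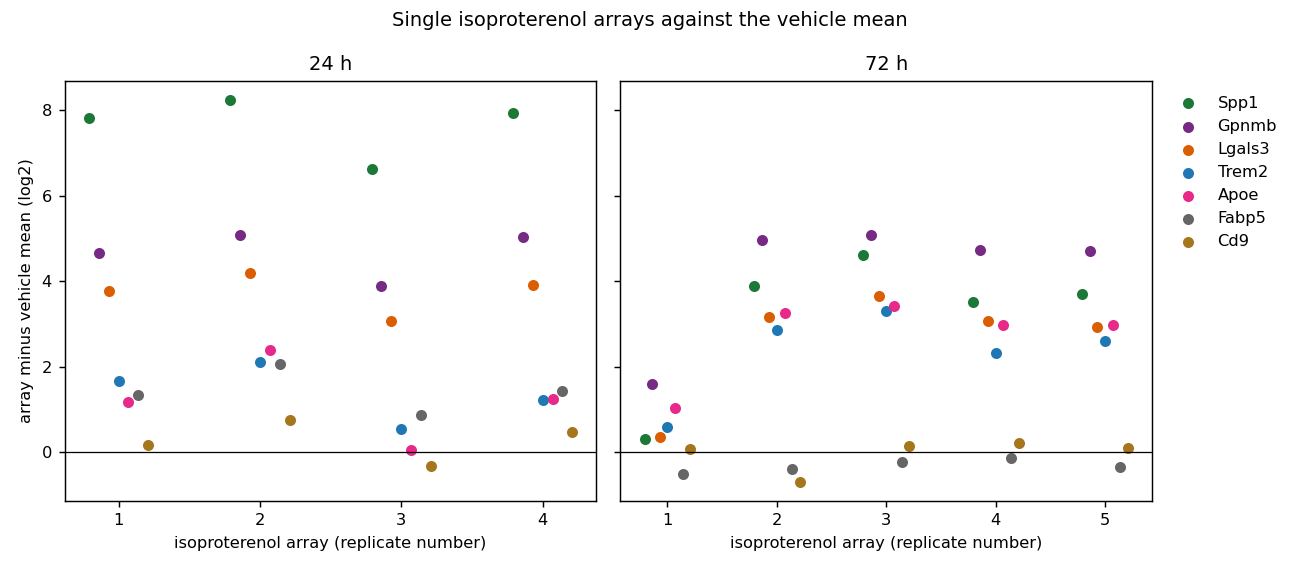
Each isoproterenol array of 24 h and 72 h, by replicate number, as its level minus the vehicle mean of the same time (log2), for the 7 genes. At 24 h replicate 2 is the highest and replicate 3 the lowest for 7 of 7 genes, and at 72 h replicate 1 lies nearest to vehicle for Spp1, Gpnmb, Lgals3, Trem2 and Apoe.

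Among the isoproterenol arrays of 24 h and 72 h, the same ones were high or low for most of the genes. At 24 h replicate 2 was the highest and replicate 3 the lowest of the 4 isoproterenol arrays for 7 of 7 genes, and at 72 h replicate 3 was the highest of the 5 for 5 of 7. Markers of monocytes and macrophages moved in the same arrays. The intensities of the 16 markers in that list, all measured, summed to between 1808 and 2809 in vehicle and 3794 and 10533 in isoproterenol at 24 h, and to between 1565 and 1952 and 3270 and 12287 at 72 h. The lowest of these sums at 72 h was replicate 1, without which the range was 9306 to 12287. The sums weigh bright markers most. Lyz2 was the brightest of the 16 in isoproterenol, with mean levels of 11.67 at 24 h and 11.91 at 72 h. Of the 16 markers 9 were called higher at 24 h and 14 at 72 h, and none lower; Ccr2, the chemokine receptor of recruited monocytes, was dim in every group. At 24 h 10.0% of all genes were called higher and 7.19% lower, and 23.8% in either direction without replicate 3. The lowest sum at 24 h was replicate 3 and the highest replicate 2. The part of these cells in the members' differences was not tested. Replicates 2 and 3 at 24 h and 1 and 3 at 72 h also lay at the ends of their isoproterenol groups for the actin measure of RNA integrity given below.

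The leading macrophage markers at 24 h were Cd68, a lysosomal glycoprotein, which rose by 2.74 ± 0.52 (limma adjusted p = 6.55e-04), Cd14, a co-receptor for lipopolysaccharide, by 2.39 ± 0.38, and Fcgr1a, an Fc receptor, by 2.32 ± 0.40. At 72 h they were Cd68 at 2.83 ± 0.49, the lysozyme gene Lyz2 at 2.59 ± 0.28 and Aif1 at 2.58 ± 0.38. Cd14 was the only 1 of the 16 called at 1 h (1.29 ± 0.36, limma adjusted p = 0.0448) and at 3 h (1.54 ± 0.38, limma adjusted p = 0.00608). The 7 markers not called at 24 h included C1qa (0.13 ± 0.26), C1qb (0.29 ± 0.33), C1qc (-0.13 ± 0.23) and Adgre1 (-0.30 ± 0.31), which were called higher at 72 h. Of 4 markers of resident macrophages, 3 were higher at 24 h (2 without replicate 3) and 2 at 72 h (3 without replicate 1), with the mannose receptor Mrc1 at 1.13 ± 0.25 and 1.67 ± 0.24 and the folate receptor Folr2 at 0.95 ± 0.30 and 1.67 ± 0.29. At 3 h 2 of the 4 were already higher, Mrc1 by 1.07 ± 0.25 and Lyve1 by 0.73 ± 0.20.

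Markers of other cells moved as well. Of 8 fibroblast markers, 1 was higher and 1 lower at 24 h (Dcn, a proteoglycan of the matrix, by 0.68 ± 0.14), and 6 were higher and 0 lower at 72 h, 7 without replicate 1, led by the matrix gene Postn, which rose by 3.68 ± 0.56 at 24 h and 5.23 ± 0.54 at 72 h, and by Cthrc1 at 4.50 ± 0.63 at 72 h. Their intensities summed to between 9236 and 11964 in vehicle and 13250 and 35886 in isoproterenol at 72 h, and from 29185 without replicate 1. Of 5 neutrophil markers, 2 rose at 1 h, 4 at 3 h, 1 at 24 h and 0 at 72 h (2 without replicate 1), led at 3 h by Il1r2, a decoy receptor for interleukin-1, at 2.30 ± 0.30. Of 6 cardiomyocyte markers, 1 was lower at 24 h (Ryr2, by 0.52 ± 0.16) and 0 changed at 72 h. Adipoq, Lep, Plin1 and Cidec, markers of fat cells, were dim in every group, and of 6 lymphocyte markers measured 0 were called at 24 or 72 h (limma).

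The other marker lists had between 3 and 6 measured genes each. Smooth muscle and pericyte markers had 3 of 6 higher at 72 h (0 at 24 h, and 2 without replicate 3), led by Tagln at 2.35 ± 0.38. Of the dendritic markers 2 of 3 were higher at 72 h, with Clec9a at 0.98 ± 0.32, of the platelet markers 1 of 3 (Pf4, 1.26 ± 0.26) and of the Schwann markers 1 of 4 (Cnp, 1.34 ± 0.24). Of the endothelial markers 1 of 5 was lower at 24 h (Kdr, by 0.92 ± 0.19), of the mesothelial 1 of 3 at 72 h (Wt1, by 0.69 ± 0.20), of the adipocyte 1 of 3 at both times (Lipe), and of the erythroid 1 of 3 at 24 h (2 without replicate 3) and 3 of 3 at 72 h, with Slc4a1 at -0.94 ± 0.21. The mast cell markers had 0 of 4 at either time by limma, and 1 lower at 72 h without replicate 1, where 1 endothelial marker was also lower. The difference between the 3′ and 5′ actin control probe sets, a measure of RNA integrity, was 1.06 ± 0.21 (SD) in isoproterenol and 1.69 ± 0.23 in vehicle at 24 h, and 1.35 ± 0.22 and 1.35 ± 0.56 at 72 h. At 1 h, where Fabp5 rose, it was 1.85 ± 0.18 in isoproterenol and 1.56 ± 0.03 in vehicle, and at 3 h 1.91 ± 0.13 and 1.28 ± 0.60. For the Gapdh control probe sets the difference at 24 h was 0.42 ± 0.07 (SD) in isoproterenol and 0.35 ± 0.03 in vehicle. At 72 h it was 0.42 ± 0.05 (SD) and 0.36 ± 0.03, at 1 h 0.42 ± 0.06 and 0.43 ± 0.04, and at 3 h 0.41 ± 0.07 and 0.37 ± 0.08. Among single isoproterenol arrays at 24 h, the actin difference was lowest in replicate 2 (0.88) and highest in replicate 3 (1.34). At 72 h it was highest in replicate 1 (1.63) and lowest in replicate 3 (1.12). The Gapdh difference had the opposite order at 24 h, with 0.51 in replicate 2 and 0.33 in replicate 3. At 72 h it was 0.43 in replicate 1 and 0.44 in replicate 3. The part of RNA integrity in the members' differences at 1, 3, 24 and 72 h was not tested.

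The receptors of osteopontin and Gpnmb and the enzymes that cut osteopontin were examined as a list of genes that hold none of the 7. Of 11 measured, 3 were called higher at 1 h, 4 at 3 h, 5 at 24 h (6 without replicate 3) and 5 at 72 h (7 without replicate 1), and none lower. Mmp12 was the only osteopontin-cutting enzyme among the 11. The listed enzyme genes F2, Mmp3, Mmp7, Mmp9 and Phex did not enter the tests. Unlike Spp1 itself, several of the receptors rose within hours. Sdc4, a heparan sulfate proteoglycan that binds Gpnmb, rose by 1.54 ± 0.20 at 1 h (limma adjusted p = 2.84e-06) and 1.77 ± 0.21 at 3 h, and Itgb3, a subunit of the osteopontin receptor, by 1.15 ± 0.28 and 2.10 ± 0.30. At 24 h the largest rises were Mmp12, a macrophage elastase, at 2.72 ± 0.38, Cd44 at 1.63 ± 0.26 and Sdc4 at 0.85 ± 0.21. At 72 h they were Mmp12 at 1.27 ± 0.36, the integrin gene Itga8 at 1.05 ± 0.29 and Cd44 at 1.04 ± 0.24. Mmp12 was dim in vehicle, with means of 5.02 at 24 h and 4.75 at 72 h. The median of the list was 0.50 at 24 h and 0.55 at 72 h.

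Of 10 measured partners of Trem2, 4 were higher at 24 h and 5 at 72 h, and none lower; at 1 h 0 were called and at 3 h 1 was lower (Adam10, a protease that sheds the receptor, by 0.96 ± 0.29). Tyrobp, the adaptor, rose by 2.48 ± 0.49 at 24 h (limma adjusted p = 0.00107) and by 1.91 ± 0.47 at 72 h. Ptpn6, a phosphatase of blood cells, rose by 2.02 ± 0.40 and 2.24 ± 0.38, and the kinase Syk by 1.11 ± 0.28 and 1.19 ± 0.27. The list's median was 0.60 at both times.

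Of 21 measured genes of ApoE receptors and cholesterol handling, 3 were higher and 2 lower at 24 h (4 and 2 without replicate 3), and 8 higher and 1 lower at 72 h (9 and 3 without replicate 1). At 24 h the lipoprotein gene Apoc1 rose by 1.55 ± 0.38 (limma adjusted p = 0.00561), the scavenger receptor Olr1 by 1.44 ± 0.33 and Soat1, which esterifies cholesterol, by 1.29 ± 0.29. Apoc1 and Olr1 were dim in vehicle, with means of 4.13 and 4.20, against 5.69 and 5.64 in isoproterenol. Pltp, which transfers phospholipid between lipoproteins, fell by 1.08 ± 0.27 and Nceh1, a cholesterol ester hydrolase, by 0.82 ± 0.20. At 72 h Pltp was the leading rise of the list, at 2.57 ± 0.26 (limma adjusted p = 8.59e-07), before Abca1, the cholesterol exporter to lipid-poor apolipoproteins, at 2.19 ± 0.30 and Soat1 at 1.69 ± 0.27. Lrp1, a receptor of ApoE, rose by 1.17 ± 0.23, and Cd36, a fatty acid transporter, fell by 1.17 ± 0.26. The median was 0.11 at 24 h and 0.40 at 72 h.

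Of 30 phagocyte and lysosome genes, 13 were higher and 1 lower at 24 h (16 and 5 without replicate 3), and 16 higher and 2 lower at 72 h (20 and 2 without replicate 1). With the arrays centred on their medians, 14 higher and 0 lower were called at 24 h and 15 and 0 at 72 h. Cd68, Clec7a, a receptor for beta-glucan, and the cathepsin Ctsz rose most at 24 h, by 2.74 ± 0.52, 2.37 ± 0.42 and 2.17 ± 0.40, and Lamp2 fell by 0.48 ± 0.12. At 72 h Clec7a rose by 3.40 ± 0.40 (limma adjusted p = 1.86e-06), Cd68 by 2.83 ± 0.49 and the cathepsin Ctss by 2.50 ± 0.33. Tfeb, a lysosomal transcription factor, fell by 0.71 ± 0.20 and Creg1 by 0.76 ± 0.19. The median was 0.56 at 24 h and 0.74 at 72 h. Only Ch25h, a cholesterol hydroxylase, was called at 1 h (2.79 ± 0.43).

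The remaining lists hold relatives of Lgals3, Fabp5 and Cd9. Of 6 measured galectins and partners, 1 was higher at 24 h (Lgals1, 0.68 ± 0.20; 2 without replicate 3) and 2 at 72 h (3 without replicate 1), with Lgals3bp, a secreted ligand of galectin-3, at 2.39 ± 0.31 (limma adjusted p = 6.73e-06) and Lgals1 at 0.67 ± 0.19. Of the 2 other fatty acid binding proteins measured, Fabp3, the form of heart muscle, fell by 0.34 ± 0.10 at 24 h. Fabp4 fell by 0.92 ± 0.24 at 3 h and by 0.87 ± 0.23 at 72 h, where both were lower without replicate 1. The cells that gave the Fabp4 signal were not tested. Among 15 tetraspanins and partners of Cd9, 8 were higher at 24 h and 7 at 72 h, and none lower with all arrays (1 at 72 h without replicate 1). Cd53 and Cd37, tetraspanins of white blood cells, rose by 2.26 ± 0.36 and 1.37 ± 0.40 at 24 h and by 2.04 ± 0.34 and 1.42 ± 0.38 at 72 h. Epcam, an adhesion protein, followed at 1.34 ± 0.32 at 24 h and Tspan4 at 1.10 ± 0.25 at 72 h. Epcam was dim in vehicle at 24 h, with a mean of 4.59, against 5.93 in isoproterenol. The median of the galectin list was 0.37 at 24 h and 0.26 at 72 h, that of the fatty acid binding proteins -0.16 and -0.57, and that of the tetraspanins 0.73 and 0.22.

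**Figure D4:**
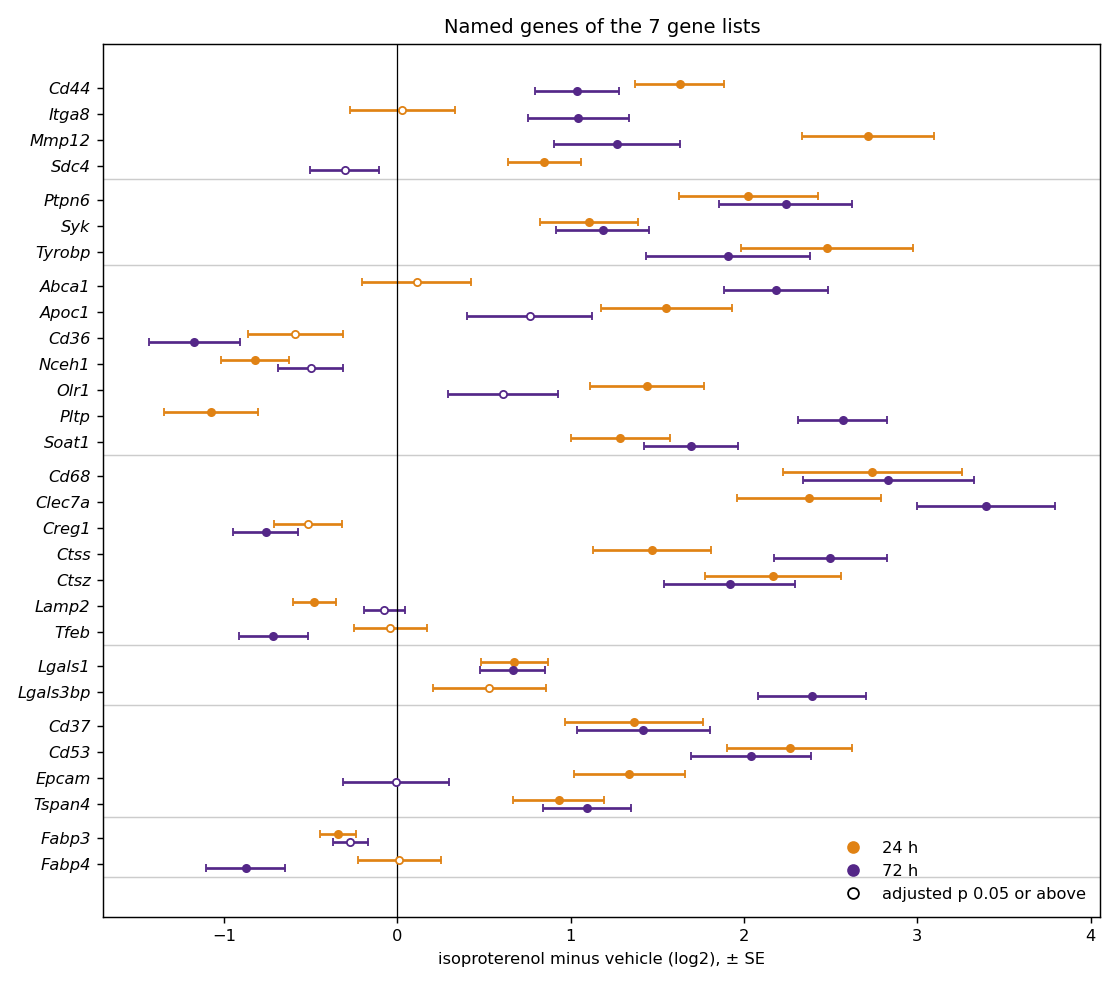
Differences from vehicle (log2) with their SE at 24 h and 72 h for the genes named from the 7 gene lists; open points did not pass the threshold of 0.05, and grey lines divide the lists, in the order receptors and enzymes, Trem2 partners, cholesterol handling, phagocyte and lysosome, galectins, tetraspanins, fatty acid binding proteins. Pltp lies below 0 at 24 h and at 2.57 at 72 h.

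The genes whose 8 group means followed each member most closely were found by Pearson correlation among 2979 candidates whose means spanned over 1, as a description over 8 conditions that share their arrays. Spp1 was followed by Alcam, an adhesion molecule (0.995), Tubb5 and Ppp1r14b, each higher at 24 h than at 72 h: Alcam differed by 1.50 ± 0.20 and 0.64 ± 0.19. Gpnmb was followed by Leprotl1 (0.998), Lpxn and Lasp1, and Lgals3 by the actin-capping gene Capg (0.994), Polr1d and Anxa7. Trem2 was followed by Slamf9 (0.994), which differed by 2.05 ± 0.56 at 24 h and 3.66 ± 0.54 at 72 h, and by Eef1a1 and Pilra, an inhibitory receptor of myeloid cells. Apoe was followed by Tmed3 (0.991), the matrix gene Fbln2 and its own receptor Lrp1 (0.990). The nearest genes of Fabp5 were less close, with Slc39a14, a metal transporter, at 0.943, the small heat shock protein Hspb1 at 0.935 and Bop1 at 0.924. The means of Cd9 spanned too little to be compared.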

How the data were processed

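Values of 31099 probe sets on each of 30 arrays were deposited as linear intensity, with the authors' summarisation and scaling not given in the sources used here. RNA was extracted with a Qiagen kit from hearts stored in RNAlater, and 10 ug of it went into labelled cRNA, per the labels' protocols. Probe sets were named through the platform annotation: 20826 had 1 gene, 436 had several and 9780 were not listed.

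Values were taken as log2(intensity + 16) and quantile normalized; differences on that scale understate the change of dim genes. After 57 control probe sets were removed, those at or above the 40th percentile of unnormalized values (intensity 23) in at least 3 arrays were tested. limma 3.58.1 in R 4.3.3 fitted 8 group means to all 30 arrays with an intensity trend (22 residual degrees of freedom). Its moderated tests were two-sided, adjusted by Benjamini-Hochberg over all 24292 probe sets within each comparison, with a threshold of 0.05. Percentages of genes called count 1 probe set a gene, the one with the highest mean, which also stood for a gene of several. Values after ± are SE unless SD is written. The fit was checked on simulated data.

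The members, the 7 gene lists and the 15 marker lists were chosen with earlier results of these data known. Named list genes are the 3 largest rises and 2 largest falls past the threshold at 24 and at 72 h; others were chosen after their values were seen. Alternatives tried were other pseudocounts (1 and 64), median centring, no normalization, no filter or one on normalized values, no trend, only the arrays compared, a replicate block and leaving out each array. The filter on normalized values, the comparison of 72 with 3 h, the gene list counts without 1 array and the M-box were added after the data had been seen. The number of arrays, 3 to 5 a group, limits the precision.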

Additional observations from a re-analysis of the deposited data

Results flagged for a closer look

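In 28 combinations of a gene and an isoproterenol group of 4 or 5 arrays, 1 array stood far from the others 5 times, where chance alone gives about 1 in 20. 4 of these were replicate 1 at 72 h, which was lowest for Spp1 (4.98, next 8.19), Gpnmb (8.16, next 11.27), Lgals3 (7.94, next 10.52) and Apoe (9.82, next 11.76). The fifth was Cd9 in replicate 2 at 72 h (8.45, next 9.22). These genes share the array, so the 4 are not separate events.

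The effect of isoproterenol at 72 h differed from that at 3 h by limma for Spp1 (3.26), Gpnmb (3.97), Trem2 (2.01), Apoe (3.09) and, in the other direction, Fabp5 (-1.03). The last was also the gene whose isoproterenol arrays lay above vehicle at 1, 3 and 24 h and below it at 72 h.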

How the results depend on the processing

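The 5 calls at 72 h, and the absence of calls among the vehicle groups and at 3 h against 1 h, held under all alternatives run. Members called higher at 1 h went from 1 to 0 with median centring (Fabp5 0.69, adjusted p = 0.117) and with no normalization (adjusted p = 0.759), and were 0 to 1 with single arrays left out. At 3 h they were 0 with no normalization (Fabp5, adjusted p = 0.394), 2 with only the arrays compared and 0 to 1 with single arrays left out. For 72 h against 3 h, members called higher were 4, and 3 to 5 with single arrays left out; the call of Trem2 was also lost with a pseudocount of 1 (adjusted p = 0.111), with median centring (0.0593) and with only the arrays compared (0.0617). Members called lower went from 1 to 0 with no normalization, where Fabp5 was -0.57 (adjusted p = 0.53) and Lgals3 passed at 2.12 (adjusted p = 0.0273). Members whose arrays did not overlap vehicle at 24 h numbered 5 to 6 with single arrays left out. The share of all genes was counted only with all arrays (13.0%), and nothing is read from this range. The difference of Spp1 at 24 h was 9.03 with a pseudocount of 1 and 6.21 with 64, that of Trem2 2.29 and 0.70, and that of Cd9 0.83 with no normalization. The cause of these changes was not tested.

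Median centring changed the counts of all genes called higher and lower from 864 and 788 to 789 and 370 at 3 h, from 1247 and 895 to 1167 and 405 at 24 h and from 1650 and 1085 to 1732 and 287 at 72 h. With no normalization they were 94 and 32 at 1 h, 193 and 110 at 3 h, 1962 and 13 at 24 h and 1658 and 4 at 72 h, and the median over all genes was -0.25, -0.19, 0.53 and 0.46. With only the arrays compared they were 509 and 334 at 1 h, 563 and 306 at 3 h, 906 and 487 at 24 h and 1079 and 375 at 72 h. Same-numbered arrays did not deviate together (2 of 12 pairs above a correlation of 0.1, from -0.07 to 0.12), so the numbers were not treated as pairs. A replicate block left 1, 1 and 5 members called higher at 1, 3 and 72 h. Of all genes it called 266 higher and 91 lower at 1 h, 787 and 681 at 3 h, and 1409 and 893 at 72 h. The vehicle means of Spp1 and Trem2 at 24 and 72 h were dim, so their folds are lower bounds.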
